A study of Mus musculus with 14 samples.

Results

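The OAS family of antiviral genes was followed in mouse bone marrow-derived macrophages whose Wdr82 had been knocked down. Its members were the 8 genes Oas1a, Oas1b, Oas1c, Oas1g, Oas2, Oas3, Oasl1 and Oasl2, taken by name and matched by gene identifier to the exon and intron counts. They are 8 of 21761 genes with exon counts and 8 of 18858 genes with intron counts, and all 8 passed the filter on low counts in both. Macrophages were grown from FVB/Hsd marrow, infected with retroviruses carrying a short hairpin RNA, put under puromycin, and left untreated before their ribosomal RNA-depleted total RNA was sequenced. The knockdown group had 2 libraries, 1 with the Wdr82 hairpin sh1137 and 1 with the Wdr82 hairpin sh830. The scrambled group had 2 libraries, scrambled 1 and scrambled 2, whose cells carried a hairpin with a scrambled sequence and went through the same infection and selection. The series has 14 samples, and the other 10, which include lipopolysaccharide-treated cells, newly made RNA and a Menin hairpin, were not analysed here. The labels do not say that the libraries came from separate cultures or animals, so p-values rest on these 4 libraries alone. In the knockdown group the difference between libraries includes the difference between hairpins.

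OAS enzymes are made in response to interferon and are switched on by double-stranded RNA. The active ones join ATP into short 2′-5′-linked oligoadenylates (2-5A), a messenger that leads to the breakdown of RNA in infected cells. WDR82 is a subunit of the complexes that methylate histone H3 at active promoters and of a complex that takes part in ending transcription.

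Exon intervals held 34787556 counts in sh1137 and 43372731 in sh830, against 40074419 in scrambled 1 and 42635790 in scrambled 2. Introns took 44.2% of exon and intron counts in sh1137 and 15.2% in sh830, against 40.4% in scrambled 1 and 14.6% in scrambled 2, so each group held 1 library of high and 1 of low intron share. The test was edgeR's quasi-likelihood F-test with a group term and a second term, called the library term, for high against low intron share; it was found in the data and is no label of the study. With the group term alone the test called 0 genes at an adjusted p under 0.05 for exons, while at an unadjusted p under 0.05 there were 437 genes with a higher and 209 with a lower level. DESeq2 with the group term alone called 153 genes higher and 23 lower. Every call below is therefore from the fit with the library term unless another fit is named. That term takes up the part of the difference between hairpins that the scrambled libraries share. Its p-values therefore do not measure the full spread between the 4 libraries. For Oas2 exons the SE was 0.15 with the library term and 0.62 with the group term alone. Wdr82 had 25.1 and 40.7 CPM (counts per 1000000 library counts) in sh1137 and sh830, against 100 and 144 CPM in scrambled 1 and 2, and fell by 1.91 ± 0.094 on the log2 scale (SE; adjusted p = 0.0022; 0.44 with the group term alone). Of 8 macrophage markers, Csf1r had 2210 and 2310 CPM in sh1137 and sh830 and 2690 and 2190 CPM in scrambled 1 and 2. Cd68 and Fcgr1 fell, where 7.79% of all genes tested were called lower, and the other 6 markers did not pass the threshold.

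Oas1a, Oas1g, Oas2 and Oasl1 fell in the knockdown cells, and no member rose. That is 4 of 8 members lower, where 7.79% of all 13884 genes tested were called lower, and 0 of 8 higher, where 6.06% were called higher. No member was higher at an unadjusted p under 0.05, and DESeq2 with the library term called none higher. In 5 of 8 members both knockdown libraries lay below both scrambled libraries, as they did in 15.7% of genes tested. The median log2 fold change was -0.84 over the members and -0.014 over all genes tested. Without the library term edgeR called 0 of 8 and DESeq2 called 0 of 8, and 3 members passed an unadjusted p under 0.05 in edgeR. Leaving out sh1137 kept the calls of Oas1g, Oas2 and Oasl1, and leaving out sh830, scrambled 1 or scrambled 2 left 0 members called, each with the group term alone. In these bulk libraries fewer cells that express a gene and less RNA per cell cannot be told apart.

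**Figure D1:**
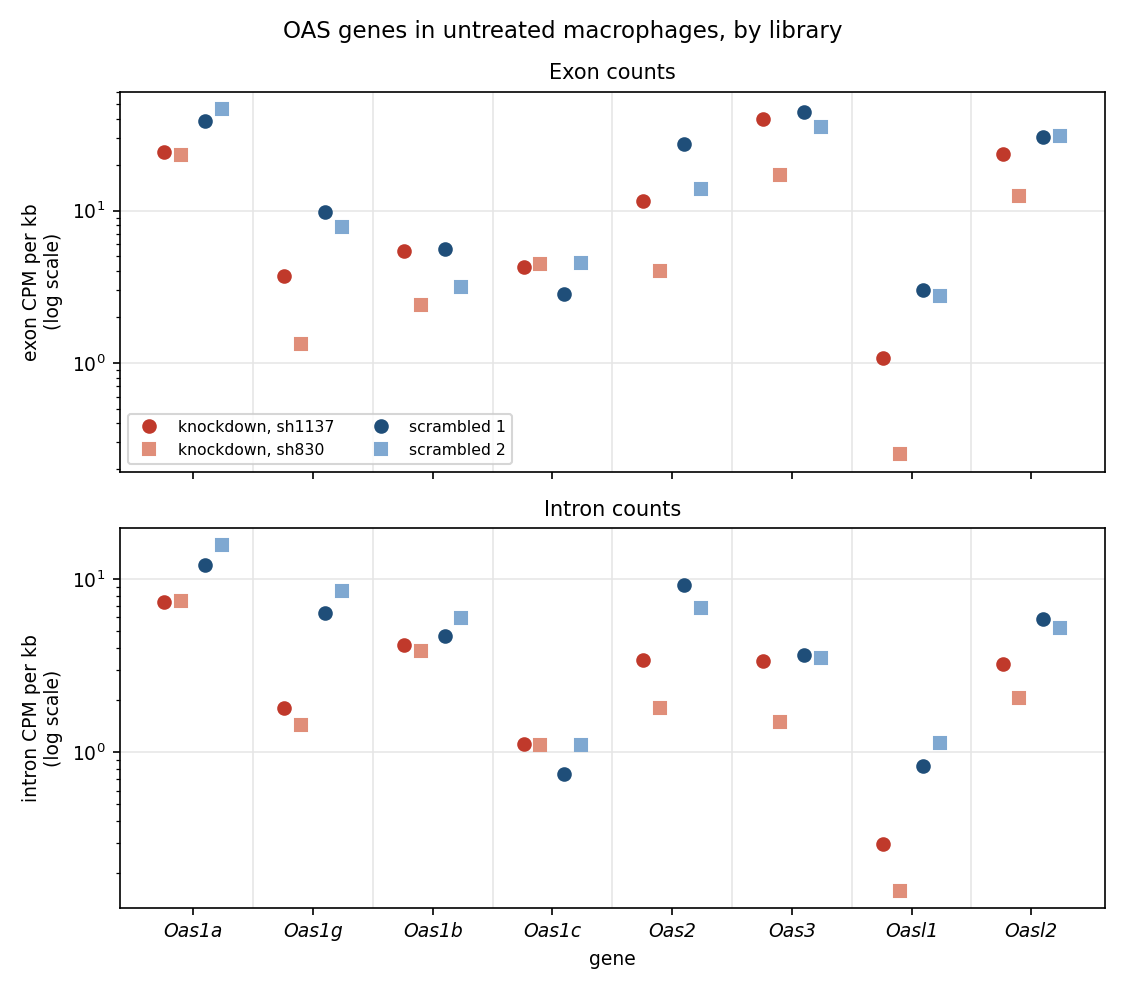
Level of each OAS gene in the 4 libraries, as CPM per kb of annotated exon (top) or intron (bottom) on log axes; each point is 1 library. Oas1a, Oas1g, Oas2, Oasl1 and Oasl2 had both knockdown exon values below both scrambled values, whereas Oas1b, Oas1c and Oas3 overlapped.

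The Oas1 genes lie close together on chromosome 5 and encode the small form of the enzyme, with a single catalytic unit. Oas1a (gene 246730, mm9 chr5:121346266-121357534, minus strand) encodes a synthetase active in mouse. It had 46.1 and 43.7 exon CPM in sh1137 and sh830, against 73.3 and 87.5 exon CPM in scrambled 1 and 2. The knockdown libraries were close to each other, at 44.9 ± 1.7 CPM, and both were below the scrambled libraries, at 80.4 ± 10 CPM (mean ± SD, n = 2 each). Oas1a fell by 0.84 ± 0.11 on the log2 scale (SE; edgeR adjusted p = 0.014; 0.50 with the group term alone).

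Oas1g (gene 23960, chr5:121326151-121337607, minus strand) is the other mouse Oas1 gene known to make 2-5A. It had 7.63 and 2.70 exon CPM in sh1137 and sh830, against 20.1 and 15.9 exon CPM in scrambled 1 and 2. The groups did not overlap, and sh830 was the lowest library. Oas1g fell by 1.95 ± 0.30 on the log2 scale (SE; edgeR adjusted p = 0.019; 0.60 with the group term alone). Its log2 fold change was -2.74 without sh1137 and -1.22 without sh830.

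Oas1b and Oas1c did not pass the threshold. Oas1b (gene 23961, chr5:121262644-121274169, plus strand) is the flavivirus resistance gene of mice; many laboratory strains carry a truncated form, and RefSeq lists it as a transcribed pseudogene. It had 9.95 and 4.43 exon CPM in sh1137 and sh830, against 10.3 and 5.77 CPM in scrambled 1 and 2. Here the libraries of high intron share were the high ones in both groups, and the groups overlapped. Its log2 fold change was -0.21 ± 0.20 (SE; 95% interval -0.71 to 0.29; edgeR adjusted p = 0.50), and it was 0.31 without scrambled 1 and 0.33 without sh830.

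Oas1c (gene 114643, chr5:121250208-121262523, minus strand) encodes a mouse Oas1 protein not known to make 2-5A. It had 9.69 and 10.1 exon CPM in sh1137 and sh830, against 6.48 and 10.3 CPM in scrambled 1 and 2. Only scrambled 1 stood apart, below the other 3 libraries. The log2 fold change was 0.27 ± 0.21 (SE; 95% interval -0.27 to 0.81; edgeR adjusted p = 0.42), and -0.071 without scrambled 1. The annotated starts of Oas1b and Oas1c lie 121 bp apart on opposite strands, so the Oas1 members that were not called are neighbours that point away from each other.

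Reads of close paralogs can be shared between copies, so levels of single Oas1 genes are uncertain and the sum was tested as well. Summed over the 8 Oas1 genes, members or not, exon counts were 2768 and 2575 in sh1137 and sh830, against 4531 and 4780 in scrambled 1 and 2. Most of these were counts of Oas1a, at 1729 and 1844 in sh1137 and sh830 and 2998 and 3487 in scrambled 1 and 2. The sum therefore mainly follows Oas1a and is no separate test of Oas1g. Whether reads that match several copies were counted is not given, and a sum cannot restore reads left out. The sum fell by 0.78 ± 0.118 on the log2 scale (SE; edgeR adjusted p = 0.0182), and the adjusted p was 0.527 with the group term alone. Without any 1 library the log2 fold change of the sum ranged from -0.93 to -0.63 and was not called. The Oas1 genes outside the members were close to silent in exon counts. Oas1d had 0 counts in each knockdown library, against 1 and 4 counts in scrambled 1 and 2. Oas1e and Oas1f had 0 to 3 exon counts in every library. Oas1e introns had 26 and 4 counts in sh1137 and sh830 against 3 and 2 in scrambled 1 and 2, and were not tested. Oas1h had 14 and 2 exon counts in sh1137 and sh830 against 17 and 11 in scrambled 1 and 2, and was not called (log2 fold change -0.94, edgeR adjusted p = 0.42). Its introns had 39 and 2 counts in sh1137 and sh830 against 46 and 16 in scrambled 1 and 2, and were not called.

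The RefSeq promoters (GRCm38.p6, 250 bases before to 50 after the gene start; the C57BL/6J genome and not that of FVB) were given for 6 of the 8 members, all but Oas1b and Oas2. They are shown because Oas1a and Oas1g were both called lower, by different amounts, and Oas1c was not called. The search was for the core of the interferon-stimulated response element, the site through which interferon switches on many of its target genes, spelled GAAA, any 2 bases, GAAA, on both strands and with overlapping matches counted. The core was found in the promoters of Oas1a, Oas1g, Oas1c and Oas3, 4 of 6 members, and in 3.44% of 32851 RefSeq promoters (1131). In the windows below, capitals mark the matches, and each window is written along its gene's strand.
Oas1a, chr5:120907500-120907575, minus strand: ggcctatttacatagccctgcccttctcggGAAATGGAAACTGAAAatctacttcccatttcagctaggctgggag
Oas1g, chr5:120887586-120887661, minus strand: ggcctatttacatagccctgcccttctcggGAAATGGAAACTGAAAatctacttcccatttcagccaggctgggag
Oas1c, chr5:120812583-120812658, minus strand: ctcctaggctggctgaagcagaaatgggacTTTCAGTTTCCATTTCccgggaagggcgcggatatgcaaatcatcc
Oas3, chr5:120777695-120777764, minus strand: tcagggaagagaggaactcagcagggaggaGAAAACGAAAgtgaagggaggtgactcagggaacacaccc

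The windows of Oas1a and Oas1g were identical at 75 of 76 bases, and their matches began 20 and 18 bases before the RefSeq starts. Over the 298 bases that could be aligned without gaps, the promoters of Oas1a and Oas1g were identical at 207 (69.5%), while every other pair of members had 29.3% to 33.2% identical bases. The 16 capital bases of Oas1c are the same 16 as in Oas1a and Oas1g read on the other strand, 114 bases before its RefSeq start. They therefore read along the strand of Oas1b, whose start is the closest to that of Oas1c. Oas3 held 1 match, 75 bases before its start. The promoters of Oasl1 and Oasl2 held no match in these 300 bases. A match is a description of the letters, and binding was not measured here.

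Oas2 (gene 246728, chr5:121180342-121199857, minus strand) encodes the medium form, with a pair of catalytic-type units. It had 51.1 and 17.8 exon CPM in sh1137 and sh830, against 122 and 61.3 exon CPM in scrambled 1 and 2. The groups did not overlap, though sh1137 and scrambled 2 were close, and in each group the library of high intron share was the higher one. Oas2 fell by 1.51 ± 0.15 on the log2 scale (SE; edgeR adjusted p = 0.0075; 0.75 with the group term alone). Its log2 fold change was -2.37 without sh1137, -0.82 without sh830 and -0.84 without scrambled 1.

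Oas3 (gene 246727, chr5:121203107-121227668, minus strand) encodes the large form, and in human cells it is the main source of 2-5A. It had 202 and 86.6 exon CPM in sh1137 and sh830, against 224 and 179 exon CPM in scrambled 1 and 2. The sh1137 library lay between the scrambled libraries, and sh830 lay below all others. Its log2 fold change was -0.60 ± 0.21 (SE; 95% interval -1.13 to -0.06; edgeR adjusted p = 0.11), and 0.019 without sh830. The deposited annotation also holds a region of 3500 bp without a strand, which begins 332 bp beyond the start of Oas3 (chr5:121228000-121231499) and is named for it. It had 75 and 12 counts in sh1137 and sh830, against 7 and 11 counts in scrambled 1 and 2. The sh1137 library was the only high one, and the region did not pass the threshold (log2 fold change 1.91 ± 0.92, SE; edgeR adjusted p = 0.20).

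The OAS-like genes lie apart from the others on chromosome 5. Oasl1 (gene 231655, chr5:115373249-115387920, plus strand) encodes a protein that does not make 2-5A and that in mouse is known to inhibit translation of Irf7 mRNA. It had 3.87 and 0.90 exon CPM in sh1137 and sh830, against 10.8 and 9.88 exon CPM in scrambled 1 and 2. The scrambled libraries were alike and the knockdown libraries differed, with sh830 at 38 counts and sh1137 at 145 counts. Oasl1 fell by 2.38 ± 0.49 on the log2 scale (SE; edgeR adjusted p = 0.034; 0.67 with the group term alone). With relative log expression factors and the library term its adjusted p was 0.055, so that 3 members were called. The fall of Oasl1 was the largest among the members, and its log2 fold change was -3.53 without sh1137 and -1.41 without sh830.

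Oasl2 (gene 23962, chr5:115346943-115362254, plus strand) encodes an OAS-like protein that in mouse keeps synthetase activity. It had 73.4 and 39.0 exon CPM in sh1137 and sh830, against 95.6 and 96.1 exon CPM in scrambled 1 and 2. The groups did not overlap, but the exon change missed the threshold (log2 fold change -0.84 ± 0.22, SE; 95% interval -1.39 to -0.29; edgeR adjusted p = 0.057). With no filter on low counts, or with genes only in the model, edgeR called Oasl2 lower (adjusted p = 0.046 and 0.041). DESeq2 with the library term called Oasl2 and Oas3 as well, at adjusted p = 0.00226 and 0.0286, so that it called 6 of 8 members lower.

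Per kb of annotated exon, Oas3 and Oas1a were the most abundant members in both groups. In the knockdown libraries the order of mean levels was Oas3 (28.6 CPM per kb), Oas1a (23.8), Oasl2 (17.9), Oas2 (7.75), Oas1c (4.34), Oas1b (3.90), Oas1g (2.52) and Oasl1 (0.661). In the scrambled libraries it was Oas1a (42.6 CPM per kb), Oas3 (39.9), Oasl2 (30.6), Oas2 (20.6), Oas1g (8.78), Oas1b (4.36), Oas1c (3.68) and Oasl1 (2.87). The ranges of Oas3, Oas1a and Oasl2 ran into each other in the knockdown group, as did those of Oas2 and Oas1c, Oas1c and Oas1b, and Oas1b and Oas1g. In the scrambled group only Oas1a and Oas3, Oas1b and Oas1c, and Oas1c and Oasl1 overlapped as neighbours in the order. Oas1g had the seventh highest level among the members in knockdown cells and the fifth highest in scrambled cells, above the overlapping pair of Oas1b and Oas1c.

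Intron counts can come from RNA that is not yet spliced, and their source was not tested here. The members that fell in exons also fell in introns. Oas1a, Oas1g, Oas2, Oasl1 and Oasl2 fell, 5 of 8 members, where 3.93% of 12405 genes tested were called lower. None rose, where 5.97% were called higher, and none was higher at an unadjusted p under 0.05 or in DESeq2 with the library term. In 7 of 8 members both knockdown libraries lay below both scrambled libraries, as in 14.1% of genes tested, and the exception was Oas1c. The median log2 fold change was -0.97 over the members and -0.011 over all genes tested.

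Oas1g had 17.0 and 13.5 intron CPM in sh1137 and sh830, against 59.8 and 80.1 intron CPM in scrambled 1 and 2. The 2 knockdown libraries were closer to each other than in exons. Oas1g introns fell by 2.14 ± 0.19 on the log2 scale (SE; edgeR adjusted p = 0.0029; 0.27 with the group term alone). Oas2 had 51.0 and 27.0 intron CPM in sh1137 and sh830, against 139 and 102 intron CPM in scrambled 1 and 2. Its introns fell by 1.65 ± 0.13 on the log2 scale (SE; edgeR adjusted p = 0.0022; 0.50 with the group term alone). Both genes had knockdown values well below the scrambled ones in every library.

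Oasl1 introns had 79 and 16 counts in sh1137 and sh830, against 217 and 102 counts in scrambled 1 and 2, and fell by 1.99 ± 0.35 on the log2 scale (SE; edgeR adjusted p = 0.022; 0.51 with the group term alone). Oas1a had 69.2 and 70.1 intron CPM in sh1137 and sh830, against 112 and 146 intron CPM in scrambled 1 and 2, and fell by 0.87 ± 0.12 on the log2 scale (SE; edgeR adjusted p = 0.010; 0.61 with the group term alone). Oasl2 had 39.3 and 25.1 intron CPM in sh1137 and sh830, against 71.5 and 63.5 intron CPM in scrambled 1 and 2. It fell by 1.08 ± 0.14 on the log2 scale (SE; edgeR adjusted p = 0.0095; 0.61 with the group term alone). Oas1b, Oas3 and Oas1c had log2 fold changes in introns of -0.39, -0.61 and 0.31, with edgeR adjusted p of 0.13, 0.16 and 0.40. Oas3 introns were at -1.25 without sh1137 and -0.090 without sh830. With no filter on low counts Oas1b and Oas3 introns were called lower as well (edgeR adjusted p = 0.029 and 0.0028), which made 7 members. Without the library term edgeR called 0 members and 5 passed an unadjusted p under 0.05. Without sh1137 3 members were called with the group term alone, without sh830 or scrambled 1 the number was 1, and without scrambled 2 it was 0.

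**Figure D2:**
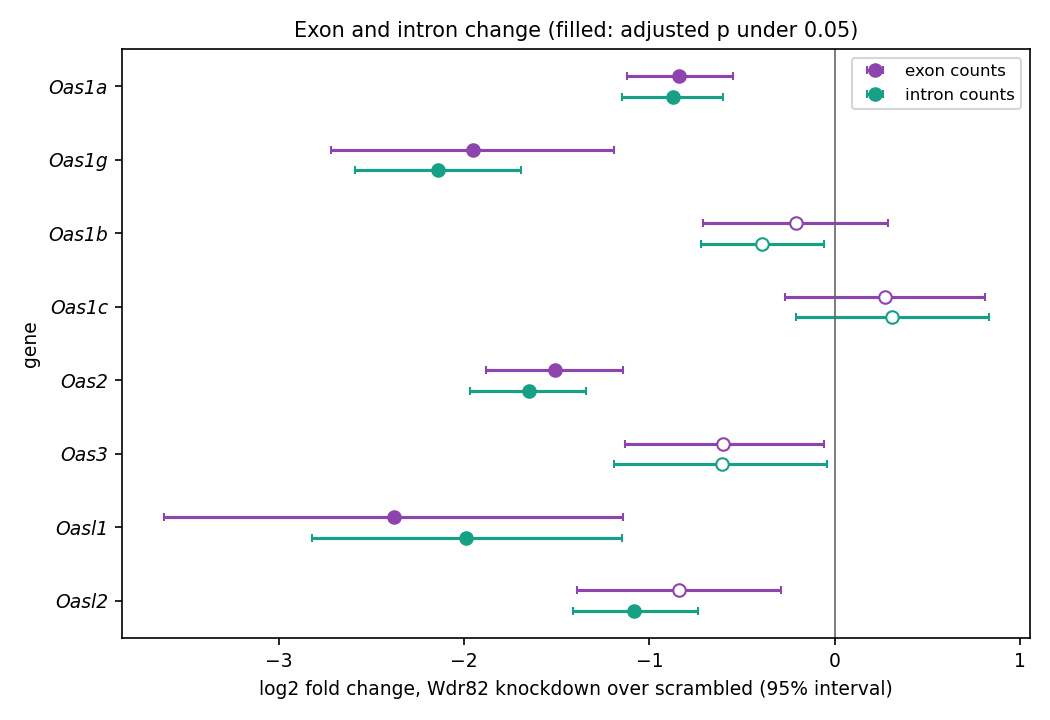
Log2 fold change of the knockdown over the scrambled group for each OAS gene in exon and intron counts, from edgeR with the library term; bars are 95% intervals from 2 libraries a group and filled points have an adjusted p under 0.05. Exon and intron values lie side by side in each OAS gene, for example -2.38 and -1.99 in Oasl1 and 0.27 and 0.31 in Oas1c.

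No member was called in the test of unequal change between introns and exons (the group by interval interaction), in which 2.19% of 11772 genes had introns called higher relative to exons and 1.46% had them called lower. At an unadjusted p under 0.05 there was 1 member, Oasl2, whose intron change was lower than its exon change by a log2 difference of -0.29 (95% interval -0.55 to -0.03; edgeR adjusted p = 0.24). No other tool was run for this interaction. The intervals of the difference were -0.28 to 0.19 in Oas1a, -0.60 to 0.11 in Oas1g, -0.42 to 0.08 in Oas2 and -0.29 to 0.18 in Oas3. They were -0.52 to 0.16 in Oas1b, -0.50 to 0.51 in Oas1c and -0.48 to 0.89 in Oasl1, the widest of the 8. Wdr82, the target of the hairpins, did change unequally, with introns higher relative to exons by 1.57 ± 0.12 on the log2 scale (SE; edgeR adjusted p = 4.7e-32; 1.00 with the group term alone).

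In Oas1a and Oas2 the intron share of a gene's own counts was alike within libraries of like overall share. Oas1a had 49.1% of its counts in introns in sh1137 (95% Wilson interval 47.4 to 50.8) and 25.7% in sh830, against 47.0% in scrambled 1 (45.7 to 48.3) and 25.6% in scrambled 2. Oas2 had 39.1% and 24.6% in sh1137 and sh830, against 39.9% and 25.4% in scrambled 1 and 2. In Oasl2 and Oas3 the intervals of sh1137 and scrambled 1 did not overlap. Oasl2 had 25.6% in sh1137 (24.2 to 27.1) and 30.3% in scrambled 1 (29.1 to 31.5). Oas3 was instead higher in sh1137, with 17.3% (16.5 to 18.1) against 15.5% in scrambled 1 (14.9 to 16.2). The share pooled over all genes was also higher in sh1137, at 44.2% against 40.4% in scrambled 1. The Oas3 rise was thus in the direction of all genes. Oasl1 had the widest intervals, with 29.6% in sh830 (19.1 to 42.8) and 20.6% in scrambled 2 (17.2 to 24.3). Oas1b had the highest intron share, from 64.5% to 72.2% over the 4 libraries, and Oas3 the lowest, from 6.76% to 17.3%. Wdr82 had 55.1% and 27.3% in sh1137 and sh830, against 24.9% and 12.0% in scrambled 1 and 2. Intervals cover counting error only.

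**Figure D3:**
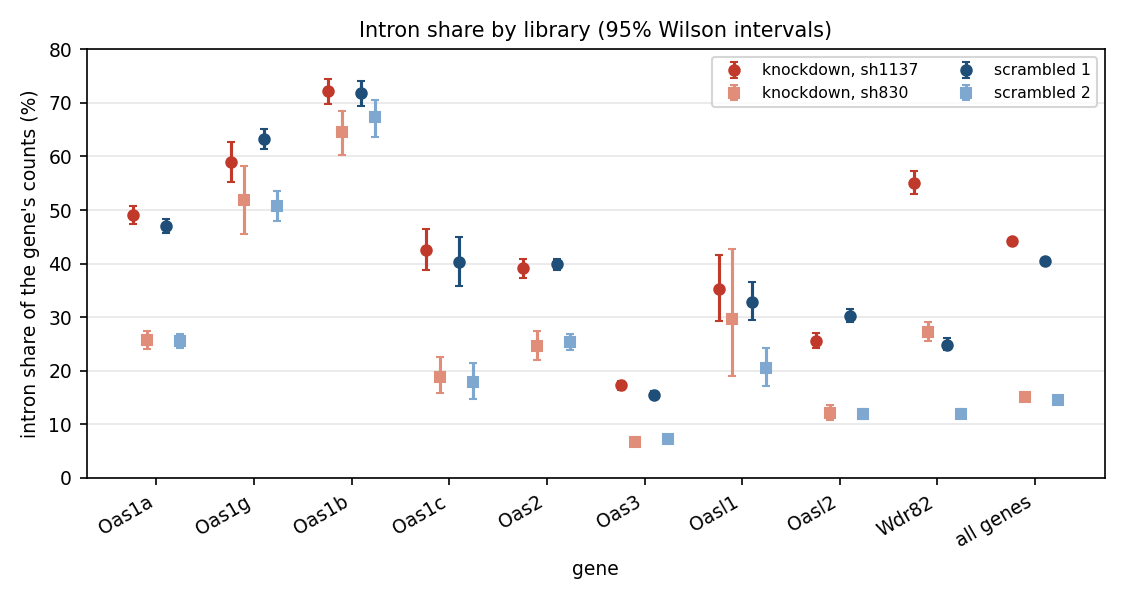
Intron share of each gene's exon and intron counts in percent, by library, with 95% Wilson intervals; the last column pools all genes. In Oas1a the circles (sh1137 at 49.1%, scrambled 1 at 47.0%) and the squares (sh830 at 25.7%, scrambled 2 at 25.6%) pair by library and not by group, whereas Wdr82 is higher in both knockdown libraries than in the scrambled library of like share.

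Set against a scrambled library of like intron share, every member was lower in the sh830 pair than in the sh1137 pair, in exons (8 of 8) and in introns (8 of 8). The share of all genes that were lower in the sh830 pair was not counted. Over all genes tested, the median log2 difference of exon CPM was -0.04 for sh1137 minus scrambled 1 and -0.00 for sh830 minus scrambled 2. Over the members the exon medians were -0.53 and -1.17, and the intron medians were -0.78 and -1.29. The gap was widest in Oasl1, at -1.49 and -3.46 in exons, and Oas3 had -0.15 in the sh1137 pair and -1.04 in the sh830 pair. Oas1a had -0.67 and -1.0. Oas1c alone was above 0 in the sh1137 pair, at 0.58, and was at -0.03 in the sh830 pair. Wdr82 itself was -2.0 in the sh1137 pair and -1.82 in the sh830 pair. Each of these differences is between 2 libraries, so none was tested, and the hairpin cannot be told apart from the library.

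**Figure D4:**
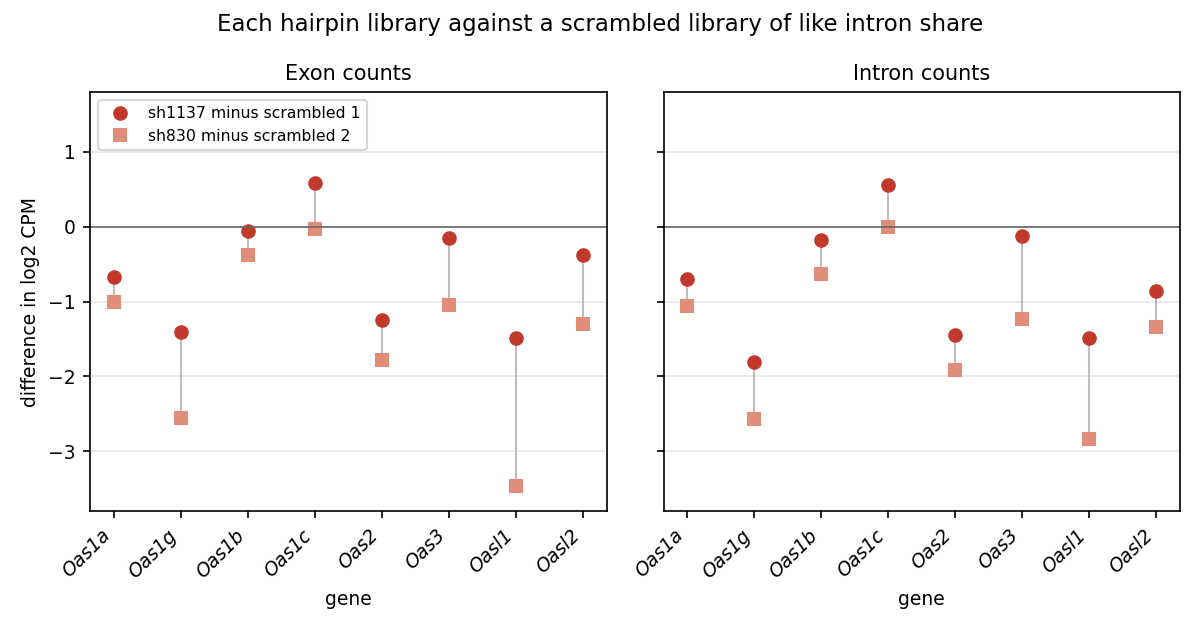
Difference in log2 CPM between each hairpin library and the scrambled library of like intron share, in exons (left) and introns (right); each point is a difference of 2 libraries and has no error bar. The sh830 point lies below the sh1137 point in all 8 OAS genes in both panels, by the most in Oasl1 exons (-3.46 against -1.49).

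Of the other genes of the 2-5A pathway, Abce1 fell and Pde12 was not called. Abce1, which encodes a ribosome recycling factor, had 121 and 181 exon CPM in sh1137 and sh830, against 177 and 244 CPM in scrambled 1 and 2. The groups overlapped, and it fell by 0.49 ± 0.087 on the log2 scale (SE; edgeR adjusted p = 0.025; 0.92 with the group term alone). Its log2 fold change was -0.20 without scrambled 2 and -0.22 without sh1137, and it was not called without any 1 library. Pde12, a phosphodiesterase that degrades 2-5A, had a log2 fold change of -0.07 (edgeR adjusted p = 0.67).

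Over all genes tested, 7.79% were called lower. Among 13 genes for other sensors of foreign nucleic acid and their partners, 3 fell and 10 did not pass the threshold. The median log2 fold change of these 13 was -0.16. Those that fell were Adar, an editor of double-stranded RNA (-0.37, edgeR adjusted p = 0.042), Trim25, a ubiquitin ligase of the RIG-I pathway (-0.48, 0.026), and Cgas, the DNA sensor (-0.60, 0.028). The group term alone gave them adjusted p of 0.97, 0.99 and 0.70, and Trim25 was at 0.032 without scrambled 1 and -0.018 without sh830. Adar was at -0.11 without scrambled 1 and -0.099 without sh830, and it also lost its call with relative log expression, upper quartile and total count factors (edgeR adjusted p = 0.052, 0.077 and 0.070). Zbp1 had the lowest value of the 13, at -0.76, but was not called (edgeR adjusted p = 0.070). The receptors of double-stranded RNA named next were nearer 0. Eif2ak2, which encodes PKR, was at -0.22 (edgeR adjusted p = 0.13), Ddx58, which encodes RIG-I, at -0.16 (0.24), Ifih1, which encodes MDA5, at 0.05 (0.73) and Tlr3 at 0.02 (0.91). Dhx58 was at -0.18, Mavs at 0.16, Tlr7 at -0.12, Prkra at 0.14 and Sting1 at 0.07.

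Of 17 genes of interferon signalling, 15 were tested, and 2 fell, 1 rose and 12 did not pass the threshold. Over all genes tested, 7.79% were called lower and 6.06% higher. The median log2 fold change of the 15 signalling genes was -0.06. Irf7, a transcription factor that drives interferon genes, had 32.7 and 23.3 exon CPM in sh1137 and sh830, against 65.4 and 67.4 CPM in scrambled 1 and 2. The groups did not overlap, and Irf7 fell by 1.26 ± 0.15 on the log2 scale (SE; edgeR adjusted p = 0.011; 0.45 with the group term alone). Stat2 fell by 0.50 (edgeR adjusted p = 0.024) and its group values overlapped, at 71.8 and 36.6 CPM in sh1137 and sh830 and 97.5 and 54.2 CPM in scrambled 1 and 2. Its log2 fold change was -0.011 without scrambled 1 and -0.059 without sh830. Ifngr1, a receptor chain for interferon gamma, rose by 0.41 (edgeR adjusted p = 0.036), and edgeR with the group term alone gave an adjusted p of 0.92. Its group values overlapped, at 141 and 195 CPM in sh1137 and sh830 and 111 and 141 CPM in scrambled 1 and 2. Without any 1 library its log2 fold change ranged from 0.17 to 0.63, and its introns were not called (edgeR adjusted p = 0.14). Irf9 was at -0.16 (edgeR adjusted p = 0.33). Ifnb1, which encodes interferon beta, had at most 0.0978 CPM in any library and was not tested.

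Of 38 other interferon-stimulated genes 37 were tested. Of these, 11 fell, where 7.79% of all genes tested were called lower, and 26 did not pass the threshold. The median log2 fold change of the 37 was -0.35. The 3 with the smallest p among those called were Ifi27l2a, Mx1 and Samd9l. Ifi27l2a had 9.71 and 44.5 exon CPM in sh1137 and sh830, against 83.2 and 245 CPM in scrambled 1 and 2, and fell by 2.76 ± 0.17 on the log2 scale (SE; edgeR adjusted p = 0.0039; 0.67 with the group term alone). Without scrambled 2 it was at -1.60 and not called, and without sh830 it was at -4.08. Mx1, an antiviral GTPase of the dynamin family, had 13.7 and 6.82 CPM in sh1137 and sh830, against 36.5 and 26.8 CPM in scrambled 1 and 2, and fell by 1.69 (edgeR adjusted p = 0.0082). Samd9l fell by 0.80 (edgeR adjusted p = 0.011). The lists were not compared with each other by a test.

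**Figure D5:**
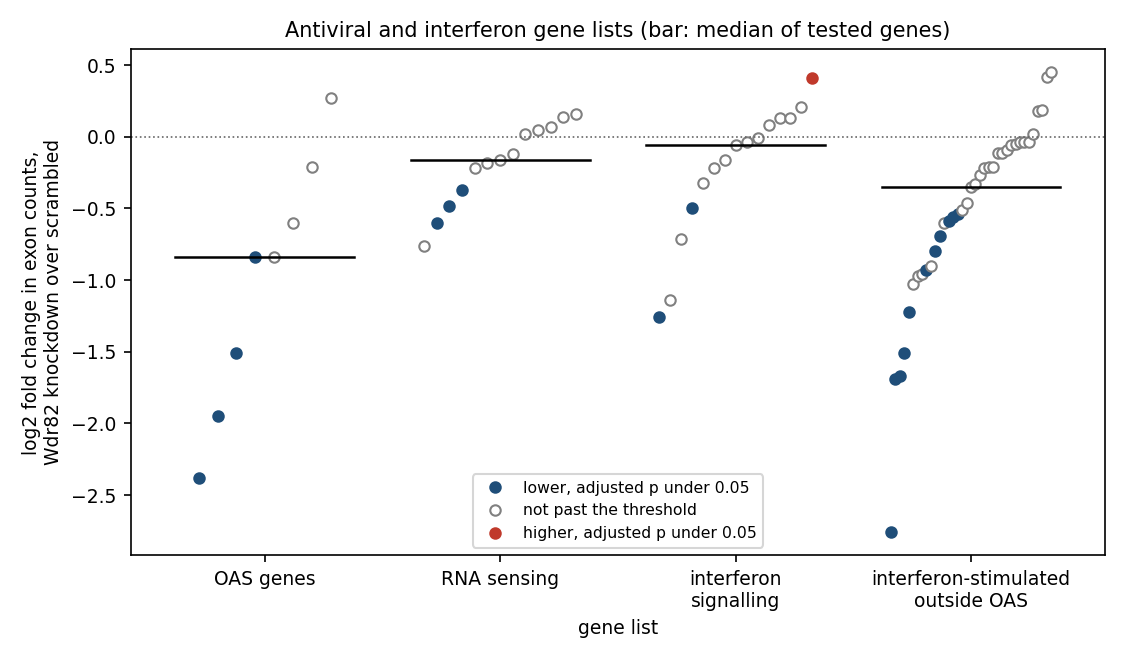
Log2 fold change in exon counts, knockdown over scrambled, for each tested gene of 4 lists, sorted within a list; filled points have an adjusted p under 0.05 in edgeR with the library term, and bars are list medians. The medians are -0.84 for the 8 OAS genes, -0.16 for RNA sensing, -0.06 for interferon signalling and -0.35 for other interferon-stimulated genes.

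The part of other cell types in the OAS values was not tested, and the summed levels of their markers were as follows. The 5 stromal markers summed to 1.87 and 110 exon CPM in sh1137 and sh830, against 1.03 and 33.1 CPM in scrambled 1 and 2, with Col1a1 called higher. They were thus higher in sh830 and scrambled 2. Exon CPM was lower in sh830 than in sh1137 in 7 of 8 members, and lower in scrambled 2 than in scrambled 1 in 5 of 8 members. For intron CPM these counts were 7 of 8 and 3 of 8, and the shares over all genes were not counted. The 6 neutrophil markers found in the files summed to 13.0 and 3.46 CPM in sh1137 and sh830, against 15.2 and 7.15 CPM in scrambled 1 and 2, and none was called. B cell markers summed to at most 1.71 CPM in any library, with 3 of 5 at 0 in all 4, T cell markers to at most 3.34 CPM and erythroid markers to at most 9.13 CPM. The 4 markers of plasmacytoid dendritic cells, a main source of interferon, summed to 132 and 162 CPM in sh1137 and sh830 and to 118 and 121 CPM in scrambled 1 and 2, and none was called. Tcf4 made up most of that sum, at 127 and 161 CPM in sh1137 and sh830 and 115 and 120 CPM in scrambled 1 and 2, while the more specific marker Siglech had at most 0.514 CPM in any library.

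No exon or span of a member overlapped another annotated gene. The annotated genes within 50 kb of a member that are not Oas genes were not called. Among them 2210016L21Rik was at a log2 fold change of -0.16 (edgeR adjusted p = 0.38), 4930519G04Rik at 0.52 (0.55) and Rph3a at 0.21 (0.87), and Dtx1 was too low to be tested. The genes whose level over the 4 libraries was most like the median profile of the members included Lpl, Fasn, Pdss1 and H2-T24, out of 11985 genes with a mean of at least 1 CPM. Their root mean square distances in centred log2 CPM were 0.088, 0.098, 0.103 and 0.104. The members' median profile was 0.02 and -0.89 in sh1137 and sh830, against 0.50 and 0.34 in scrambled 1 and 2. Lpl, which encodes lipoprotein lipase, had 371 and 215 CPM in sh1137 and sh830, against 594 and 464 CPM in scrambled 1 and 2. With 4 libraries such a likeness is a description of these values.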

How the data were processed

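The deposited values are raw counts of reads in the exons and in the introns of each gene; the unit was read from the values, and mm9 coordinates come from the authors' deposited annotation. Cuffdiff 2.1.1, TopHat 1.3.1, SICER, Cufflinks 2.1.1 and the mm9 build stand in the submitters' processing notes. The counting tool and its use of strand are not given in the sources used here. Per the labels' protocols the libraries mark strand.

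Genes and 1107 non-gene regions entered 1 model (edgeR 4.0.16 in R 4.3.3; gene-based TMM factors) with filterByExpr, a group term and the library term (1 residual degree of freedom), and p-values were adjusted over all features tested (Benjamini-Hochberg, threshold 0.05). CPM are scaled by TMM. Introns had factors of their own, and the interaction model had a term for each library. SE is the log2 fold change over the root of F. Models were tested on simulated data. DESeq2 1.42.0, other factors and filters, and leaving out each library (group term alone) were alternatives. The members, lists and naming rule were chosen with earlier results of these data known; named were all members, Wdr82, the pathway, paralog and RNA sensing lists, the 3 smallest p in each direction of the interferon lists, a few fixed interferon genes, neighbours within 50 kb and the 5 genes of closest profile, of which some are not reported here. With 2 libraries a group the smallest p of an exact permutation test is 0.33, and none was run. Of 21761 gene identifiers 21615 had a symbol. Trac, Ly6g and Hba-a1 had no match in the marker lists.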

Additional observations from a re-analysis of the deposited data

Results flagged for a closer look

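Oas1c was higher in the sh1137 pair and nearly unchanged in the sh830 pair. Its exon level on the log2 scale was 0.58 higher in sh1137 than in scrambled 1, and the difference was -0.03 between sh830 and scrambled 2. These are differences between single libraries of like intron share, and whether they differ from each other was not tested. Scrambled 1 had 265 exon counts of Oas1c and the other 3 libraries had 363 to 428.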

How the results depend on the processing

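No paired analysis was possible because the knockdown libraries carry hairpin names and no replicate number. That holds for pairs taken from the labels. The library term itself sets sh1137 with scrambled 1 and sh830 with scrambled 2, by the intron share found in the data. Calls with that term therefore rest on this pairing. With the group term alone edgeR on all 4 libraries kept no call of a gene, and the cause was not tested. The exon call of Oasl1 and the intron calls of Oas1b and Oas3 depend also on the scaling factors or the filter. Oasl2 exons were called lower by edgeR with no filter and with genes only in the model, which made 5 members in each. For exons, the group term alone, the crossed split and DESeq2 with the group term alone called 0, 0 and 0 members lower, against 4 with the library term, and leaving out a library gave 0 to 3. Over all genes, where the library term gave 841 higher and 1081 lower, the group term alone gave 0 and 0, the crossed split 23 and 1, and DESeq2 with the group term alone 153 and 23; leaving out a library gave 13 to 190 higher and 1 to 28 lower. Upper quartile factors called 633 genes lower and total counts 653. For introns, the group term alone called 0 members lower, against 5, and leaving out a library gave 0 to 3. Over all genes, where 740 introns were higher and 488 lower, the group term alone gave 0 and 0, no filter 1233 and 1133, relative log expression factors 915 lower and DESeq2 318 lower; leaving out a library gave 5 to 211 higher and 0 to 42 lower. For introns against exons, where 258 genes were higher and 172 lower, the fit without the library term gave 0 and 0, and leaving out a library gave 0 to 2 higher and 0 to 0 lower. The summed Oas1 genes kept their direction but lost the call with the group term alone (-0.77) and when a library was left out (-0.93 to -0.63).

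Directions turned only in values that were not called, except Trim25. Leaving out a library gave exon log2 fold changes of -0.87 to 0.33 in Oas1b, -0.071 to 0.64 in Oas1c, -1.23 to 0.019 in Oas3, -0.21 to 0.071 in Pde12 and -1.07 to 0.032 in Trim25; Pde12 was at 0.012 with upper quartile factors. It gave intron against exon values of -0.11 to 0.024 in Oas1a, -0.77 to 0.37 in Oas1b, -0.10 to 0.094 in Oas1c, -0.81 to 0.39 in Oas1g, -0.48 to 0.16 in Oas2, -0.18 to 0.019 in Oas3 and -0.30 to 0.94 in Oasl1; Oas1c was at -0.020 with relative log expression factors and -0.016 with no filter. Alternatives for genes outside the members were added after their values were seen. With 16 to 145 counts in the knockdown libraries, Oasl1 is the member whose size depth limits most.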
